A study of Mus musculus with 20 samples.

Results

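The vacuolar proton pump subunit genes described here are 10 mouse genes chosen by name, out of 21887 protein-coding genes of the GRCm38 annotation. Atp6v1a, Atp6v1b2, Atp6v1c1, Atp6v1d, Atp6v1e1 and Atp6v1h encode subunits of the cytosolic V1 sector, and Atp6v0a1, Atp6v0b, Atp6v0c and Atp6v0d1 encode subunits of the membrane-bound V0 sector. No measured value entered the choice, though earlier results of these data were known when it was made. Peaks of acetylated lysine 27 on histone H3 (H3K27ac), which marks promoters and enhancers in use, were collected over the span of each gene plus 25 kb on either side.

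The vacuolar proton pump (V-ATPase) burns ATP in its V1 sector and uses the rotation this drives to push protons through the ring of its V0 sector. It acidifies endosomes and lysosomes in all cells. In osteoclasts, the bone-resorbing cells that form from macrophage precursors, the same pump is placed in the ruffled border and acidifies the space over the bone. RANKL is the cytokine that starts this differentiation, and I-BET blocks the BET bromodomain proteins, which bind acetylated histones.

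Chromatin immunoprecipitated for H3K27ac was sequenced from RAW264.7, a mouse macrophage-like cell line that RANKL can drive towards osteoclasts and that the labels call monocyte-derived. RANKL+I-BET cells (3 libraries) received 50 ng/ml RANKL together with 500 nM I-BET for 4 h, RANKL cells (3 libraries) received RANKL alone, I-BET cells (1 library, numbered 3) received the inhibitor alone, and untreated cells (3 libraries) received neither. All libraries come from 1 transformed line without any genetic change named in the labels, and no library is stated to be a separate culture, so the p-values reflect the spread between libraries that may be technical repeats. Each library came with 1 peak list without read counts, so the depth is unknown. Values of 3 libraries are given in the order of replicates 1, 2 and 3, and values of 2 libraries are those of replicates 1 and 3.

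The promoter sequences below are shown because they carry the E-box letters CACGTG and because the acetylated stretches of these genes lie in different places relative to them. They are the 300 bases from 250 upstream to 50 downstream of the annotated start, taken from RefSeq on GRCm38.p6, all on the minus strand and written 5′ to 3′ with the E-box in capitals. Longer capitals mark TCACGTGA, the 8 letters that resemble the CLEAR element, through which factors of the TFEB and MITF family are known to act on lysosomal genes. Atp6v1a encodes the catalytic subunit (chr16:44139210-44139509), Atp6v0b a proteolipid of the proton-carrying ring (chr4:117887280-117887579) and Atp6v0d1 the subunit that couples the rotor shaft to the ring (chr8:105566015-105566314).
Atp6v1a: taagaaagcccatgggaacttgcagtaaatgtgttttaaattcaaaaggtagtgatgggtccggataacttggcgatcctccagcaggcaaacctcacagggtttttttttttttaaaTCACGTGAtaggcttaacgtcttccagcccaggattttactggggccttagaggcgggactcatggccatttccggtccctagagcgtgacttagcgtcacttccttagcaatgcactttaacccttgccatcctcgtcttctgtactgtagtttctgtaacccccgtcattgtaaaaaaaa
Atp6v0b: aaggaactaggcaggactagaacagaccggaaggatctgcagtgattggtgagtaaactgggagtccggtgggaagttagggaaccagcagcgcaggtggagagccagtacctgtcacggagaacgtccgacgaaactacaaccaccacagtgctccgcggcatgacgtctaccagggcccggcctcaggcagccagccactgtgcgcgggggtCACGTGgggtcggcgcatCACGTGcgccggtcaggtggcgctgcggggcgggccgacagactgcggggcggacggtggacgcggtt
Atp6v0d1: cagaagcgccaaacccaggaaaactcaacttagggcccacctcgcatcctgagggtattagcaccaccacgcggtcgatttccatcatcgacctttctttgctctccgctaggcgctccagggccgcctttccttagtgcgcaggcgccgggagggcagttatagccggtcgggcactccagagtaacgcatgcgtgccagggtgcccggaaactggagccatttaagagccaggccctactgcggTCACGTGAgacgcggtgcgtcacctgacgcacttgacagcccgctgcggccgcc

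Of the 10 genes, 7 had a promoter in the RefSeq table, with 9 promoters between them. The shares of all promoters below compare with the counts out of 9. CACGTG, read on both strands, lay in 3 of these 7 genes and 3 of 9 promoters, against 7.15% of all 32851 promoters of this length. TCACGTGA, which contains CACGTG, lay in 2 of the 7 genes, Atp6v1a and Atp6v0d1, and 2 of 9 promoters, against 0.974% of all promoters. It began 132 bp upstream of the start in Atp6v1a and 4 bp upstream in Atp6v0d1, while Atp6v0b held CACGTG at 36 and 18 bp upstream. The GC box GGGCGG lay in 5 of 7 genes and 7 of 9 promoters, against 35.7% of all promoters. CCAAT lay in 2 of 7 genes and 2 of 9 promoters, against 37.4%. The AP-1 letters TGACTCA lay in 0 of 7 genes and 0 of 9 promoters, against 5.2%. A match of letters is a description of the sequence and says nothing of binding.

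In the lists, the 300 bp promoter of Atp6v1a was covered over its whole length in all 10 libraries. The promoter of Atp6v0d1 was covered over all 300 bp in 9 libraries and over 0 bp in RANKL+I-BET replicate 2. At Atp6v0b the peak instead lay on the gene side of the start: in the first 1 kb downstream it covered 929 and 865 bp in RANKL+I-BET, 903 and 883 bp in RANKL, 820 bp in I-BET and 549 and 867 bp in untreated cells. In the 1 kb upstream of the same start it covered 0 and 57 bp, 0 and 0 bp, 28 bp, and 0 and 0 bp in the same libraries. Both E-boxes of Atp6v0b thus lay inside the covered stretch in RANKL+I-BET replicate 3, the one nearer the start did so in I-BET, and neither did in the 5 other lists numbered 1 and 3. Those of Atp6v1a and Atp6v0d1 lay inside it in all 7.

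The lists differed in length in ways that touch every value below. Lists numbered 1 and 3, together with the I-BET list, covered 16.1 to 25.9 Mb. Those numbered 2 covered 3.44 Mb in RANKL+I-BET, 184.6 Mb in RANKL and 7.79 Mb in untreated cells, so they are shown apart. Macrophage markers had a peak at a gene end (within 1 kb of it) at 8 to 10 of 10 in the 7 lists numbered 1 and 3 and at 6, 10 and 8 in the RANKL+I-BET, RANKL and untreated lists numbered 2. Lymphocyte markers had such a peak at 0 or 1 of 10, and fibroblast, osteoblast and unrelated tissue markers at 0 of 16, except in RANKL replicate 2, where the counts were 10 of 10 lymphocyte, 5 of 8 fibroblast and osteoblast, and 7 of 8 unrelated tissue markers. The part of that library's content in its values below was not tested.

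All 10 pump genes carried such a gene-end peak in each of the 7 lists numbered 1 and 3, with or without RANKL and with or without I-BET. Over all protein-coding genes 5910, or 27%, did so. The share of all genes with such a peak was 41.7% and 36.7% in RANKL+I-BET, 41.5% and 41.8% in RANKL, 34.8% in I-BET and 32.5% and 37.7% in untreated cells. In the lists numbered 2 the pump genes numbered 8 in RANKL+I-BET, where Atp6v1e1 and Atp6v1h had none, 10 in RANKL and 10 in untreated cells, against 17.3%, 74.0% and 27% of all genes. Acetylation at the ends of these genes was thus listed in untreated cells already, and no pump gene acquired or lost it altogether in the lists numbered 1 and 3 as deposited. In lists from a whole culture, a mark carried by fewer cells and a weaker mark in each cell cannot be told apart. Lists were also reduced to a common covered length of 16.1 Mb. A gene-end peak then stayed at 6 and 10 pump genes in RANKL+I-BET and at 9 and 7 in RANKL. In I-BET it stayed at 6 and in untreated cells at 10 and 7. Untreated replicate 1 set this length and lost no peak, so its count of 10 was fixed in advance. Its lowest -log10 p was 0.92, while the other lists were cut at limits from 3.28 in I-BET to 4.58 in RANKL replicate 3. The reduced lists are thus equal in length and not in peak strength.

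Most of these peaks had modest statistical strength. With only peaks of a -log10 q of at least 5 kept, pump genes with a gene-end peak numbered 2, 1 and 2 in RANKL+I-BET, 3, 6 and 2 in RANKL, 1 in I-BET, and 0, 0 and 1 in untreated cells. The authors' fold enrichment over local background, a value of each peak within its own list, ran for the strongest gene-end peak from 2.71 at Atp6v1d to 5.49 at Atp6v1b2 in RANKL+I-BET replicate 1 and from 2.39 at Atp6v1b2 to 3.86 at Atp6v0a1 in replicate 3. It ran from 2.55 at Atp6v1b2 to 7.15 at Atp6v1c1 in RANKL replicate 1 and from 1.99 at Atp6v1b2 to 4.30 at Atp6v0a1 in replicate 3. In the I-BET list the range was 1.93 at Atp6v1h to 4.62 at Atp6v0c. Untreated replicate 1 ranged from 2.50 at Atp6v1a to 3.95 at Atp6v1c1, and replicate 3 from 2.00 at Atp6v0b to 2.84 at Atp6v0a1. Atp6v1b2 held the lowest fold in 3 of these 7 lists and Atp6v0a1 the highest in 3. These peaks may lie at either end of a gene. The 7.15 at Atp6v1c1 was a 0.162 kb peak at its upper-coordinate end, with 3.82 at the lower end. The 4.30 at Atp6v0a1 lay at the 3′ end, with 2.39 at the 5′ end. The 4.62 at Atp6v0c lay just beyond the 3′ end, in a stretch that also reached Amdhd2, with 2.47 at the 5′ end.

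**Figure D1:**
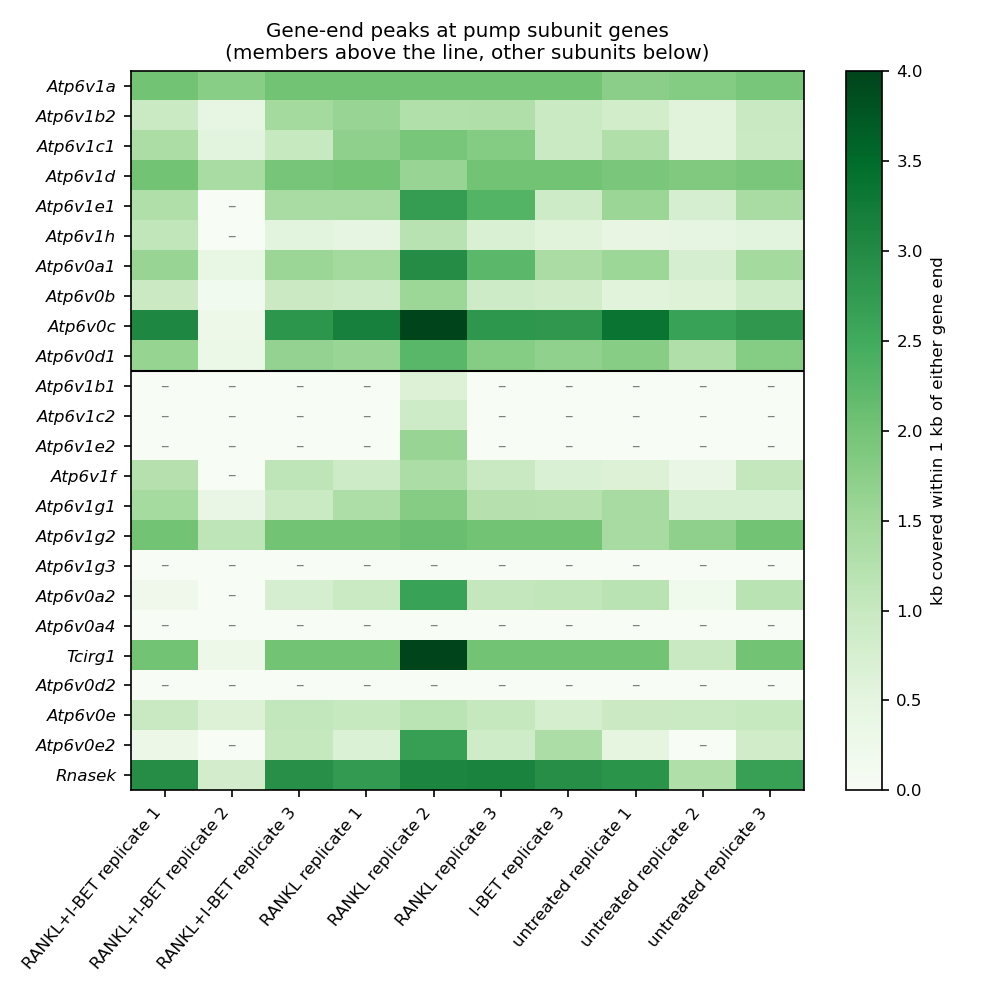
Rows are the 10 pump genes above the line and 14 other pump subunit genes below it, columns are the 10 deposited lists, and the shade gives the kb covered within 1 kb of either gene end, with a dash where no peak was listed. The upper block is filled in every list except for Atp6v1e1 and Atp6v1h in RANKL+I-BET replicate 2, while 6 of the 14 lower genes are empty in all 7 lists numbered 1 and 3.

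The V1 genes differed widely in how much of their surroundings was covered. Atp6v1a, the catalytic subunit (chr16:44085402-44139702, minus strand), had 10.4 and 13 kb covered in RANKL+I-BET, 12.7 and 10.7 kb in RANKL, 11.8 kb in I-BET and 12.8 and 11.1 kb in untreated cells. Atp6v1b2 (chr8:69088736-69113718), the nucleotide-binding partner of the catalytic subunit in the form found in osteoclasts, had 1.11 and 1.53 kb in RANKL+I-BET, 1.73 and 1.38 kb in RANKL, 1.67 kb in I-BET, and 0.975 and 1.51 kb in untreated cells. In both genes the RANKL+I-BET, RANKL and untreated ranges overlapped.

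Atp6v1c1 (chr15:38661904-38692444), which joins the sectors and takes part in their reversible assembly, had 6.95 and 6.34 kb in RANKL+I-BET, 8.48 and 9.03 kb in RANKL, 7.001 kb in I-BET and 7.70 and 7.10 kb in untreated cells. Atp6v1e1 (chr6:120795244-120822698, minus strand), part of the peripheral stalk that holds the motor still, had 4.34 and 3.26 kb in RANKL+I-BET, 4.64 and 5.85 kb in RANKL, 3.92 kb in I-BET and 4.38 and 3.26 kb in untreated cells. At both genes both RANKL lists lay above all other lists numbered 1 and 3. Shares of all genes without overlap, here and below, are of genes with a mean of at least 500 bp over the groups compared. As deposited in lists numbered 1 and 3 these were 12186 genes. Of them, 53% lay higher in both RANKL lists than in both untreated lists, and 29.7% lower in both RANKL+I-BET than in both RANKL lists.

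Atp6v1d (chr12:78842982-78862008, minus strand), the central rotor shaft, had 2.16 and 2.15 kb in RANKL+I-BET, 2.81 and 2.36 kb in RANKL, 2.66 kb in I-BET and 2.38 and 2.20 kb in untreated cells. Atp6v1h (chr1:5082978-5163213), a regulatory subunit that keeps the detached V1 sector from wasting ATP, had 1.09 and 0.528 kb in RANKL+I-BET, 0.482 and 0.701 kb in RANKL, 0.566 kb in I-BET and 0.441 and 0.517 kb in untreated cells. The RANKL+I-BET lists were lowest at Atp6v1d, by a margin under 0.1 kb to the lower untreated list. Of all genes, 29.7% lay lower in both RANKL+I-BET lists than in both RANKL lists, and 2.87% lower than in both untreated lists. A single RANKL+I-BET list stood out at Atp6v1h.

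Among the V0 genes Atp6v0c was covered most. Atp6v0c (chr17:24163865-24169678, minus strand), the main proteolipid of the proton-carrying ring, had 10.6 and 9.06 kb in RANKL+I-BET, 9.51 and 9.22 kb in RANKL, 7.95 kb in I-BET, and 9.82 and 8.32 kb in untreated cells. Atp6v0a1 (chr11:101009422-101063719, plus strand) encodes 1 of the alternative forms of the subunit that lets protons in and out of the ring and that decides where in the cell the pump is placed. It had 5.36 and 5.23 kb in RANKL+I-BET, 5.53 and 5.89 kb in RANKL, 5.02 kb in I-BET and 5.54 and 4.63 kb in untreated cells. The groups overlapped at both genes, except that both RANKL+I-BET lists lay below both RANKL lists at Atp6v0a1, as at 29.7% of all genes.

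Atp6v0d1 (chr8:105524461-105566064, minus strand) had 2.28 and 2.33 kb in RANKL+I-BET, 2.46 and 2.43 kb in RANKL, 2.58 kb in I-BET, and 1.78 and 2.55 kb in untreated cells. Atp6v0b (chr4:117884330-117887333, minus strand) had 0.929 and 0.923 kb in RANKL+I-BET, 1.77 and 0.883 kb in RANKL, 0.849 kb in I-BET and 0.549 and 1.28 kb in untreated cells. At Atp6v0b a single RANKL list was high, and the untreated lists lay on either side of most others.

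**Figure D2:**
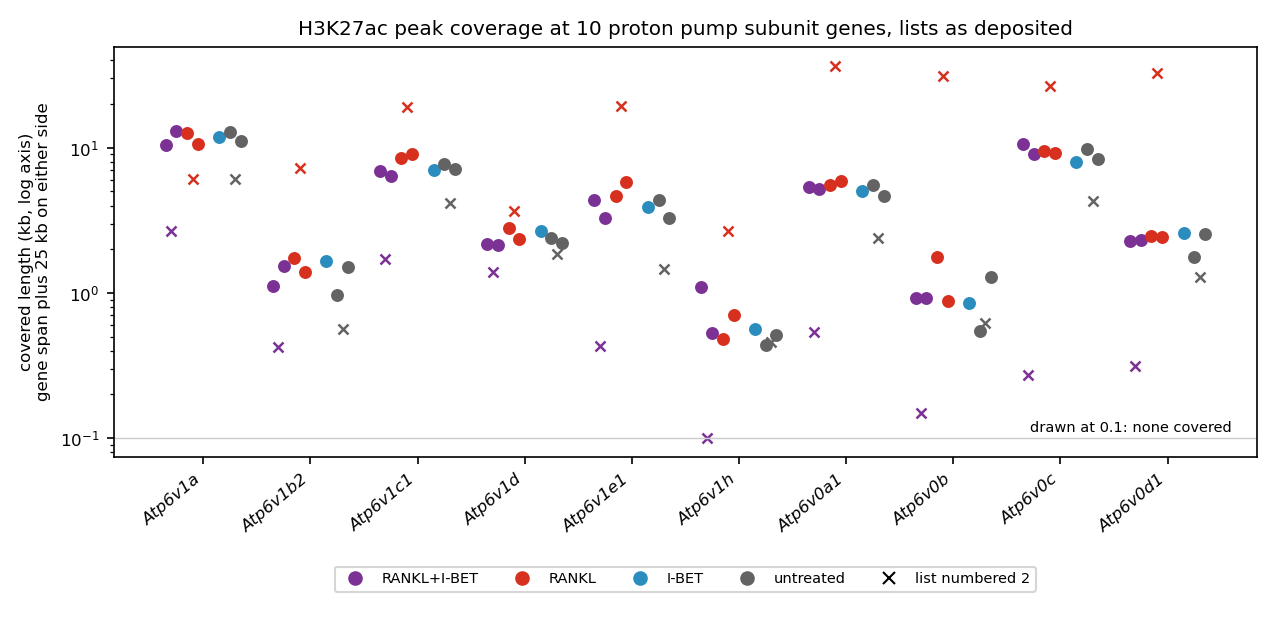
Each point is the length in kb (log axis) covered by deposited peaks in the span of 1 gene plus 25 kb on either side in 1 list, with colours for RANKL+I-BET, RANKL, I-BET and untreated cells and crosses for lists numbered 2. Circles spread most at Atp6v0b, from 0.549 to 1.77 kb, and at Atp6v1h, from 0.441 to 1.09 kb, and the cross of RANKL replicate 2 lies above all others at 9 of 10 genes and that of RANKL+I-BET replicate 2 below all others at all 10.

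Since the windows differ in length, levels were compared between genes as the percentage of the window covered. Atp6v0c led in all 7 lists numbered 1 and 3, at 14.2% to 19.0% of its 55.8 kb window. Atp6v1a followed in 6 of the 7 lists, at 9.94% to 12.5%, and Atp6v1c1 came next, at 7.88% to 11.2%, and ahead of Atp6v1a in RANKL replicate 3. Atp6v1e1 (4.21% to 7.55%) and Atp6v0a1 (4.44% to 5.64%) exchanged places between lists and did not differ beyond their spread. Atp6v1d held 3.11% to 4.07%, and Atp6v0d1 (1.94% to 2.82%), Atp6v1b2 (1.30% to 2.30%) and Atp6v0b (1.04% to 3.33%) overlapped. Atp6v1h was last in all 7 lists, at 0.339% to 0.838%.

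Within the windows the peaks of the 7 lists numbered 1 and 3 merged into 26 stretches held by at least 2 of these lists. Of these, 18 were held by all 7 lists, against 50.7% of the 17608 stretches of the same kind over the genome. The stretches lay at an end of the pump gene itself in 14 cases, only at an end of a neighbouring gene in 5, and at no gene end in 7. The widest was a stretch of 9.04 kb over nearly the whole of Atp6v0c and the sequence before its start (chr17:24164604-24173642), wider than 99.2% of all stretches, whose median was 1.54 kb.

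Atp6v1a held the next widest, a stretch of 8.64 kb inside the gene (chr16:44117322-44125960), wider than 99.1% of all. It began 13.7 kb into the gene from the 5′ end and touched no gene end. Peaks covered 5.11 and 7.95 kb of it in RANKL+I-BET, 6.90 and 6.21 kb in RANKL, 6.85 kb in I-BET and 8.04 and 6.56 kb in untreated cells. In the lists numbered 2 it held 0 kb in RANKL+I-BET, 0.731 kb in RANKL and 3.32 kb in untreated cells. No group stood apart from the others in the lists numbered 1 and 3.

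Several gene-end stretches were shared with a neighbour and cannot be assigned to the pump gene alone. The 5.76 kb stretch at the start of Atp6v1a also covered the start of Naa50, an N-terminal acetyltransferase gene on the opposite strand that begins 88 bp away. Atp6v1d shared a 3.05 kb stretch with Eif2s1, which encodes a translation initiation factor subunit and begins 63 bp away. The Atp6v0d1 stretch reached an end of Agrp, the Atp6v1b2 stretch an end of Slc18a1, whose annotated span overlaps it, and the Atp6v0c stretch an end of Amdhd2. Of the 5 stretches at neighbours only, 3 lay beyond Atp6v0a1, at Naglu, Hsd17b1, Coasy and Mlx, 1 at Bcl2l13 beside Atp6v1e1 and 1 at Dph2 beside Atp6v0b. The gene-end peaks of Atp6v1c1, Atp6v1e1, Atp6v1h, Atp6v0a1 and Atp6v0b touched no other gene's end.

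Atp6v1c1 had several covered stretches outside the gene. A stretch of 2.71 kb lay 16.0 kb below its lower-coordinate end and another of 4.28 kb lay 7.41 kb below it, and both were held by all 10 lists. The 4.28 kb stretch held 2.43 and 3.21 kb in RANKL+I-BET, 3.34 and 3.22 kb in RANKL, 3.14 kb in I-BET and 2.23 and 2.94 kb in untreated cells. Another stretch, 17.1 kb above the opposite end, held 0.706 and 0 kb in RANKL+I-BET, 0.623 and 1.42 kb in RANKL, 1.17 kb in I-BET and 0 and 1.33 kb in untreated cells. RANKL lists were highest at the 4.28 kb stretch, with the lower of them nearly level with RANKL+I-BET replicate 3, and the one above the gene did not separate the groups.

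**Figure D3:**
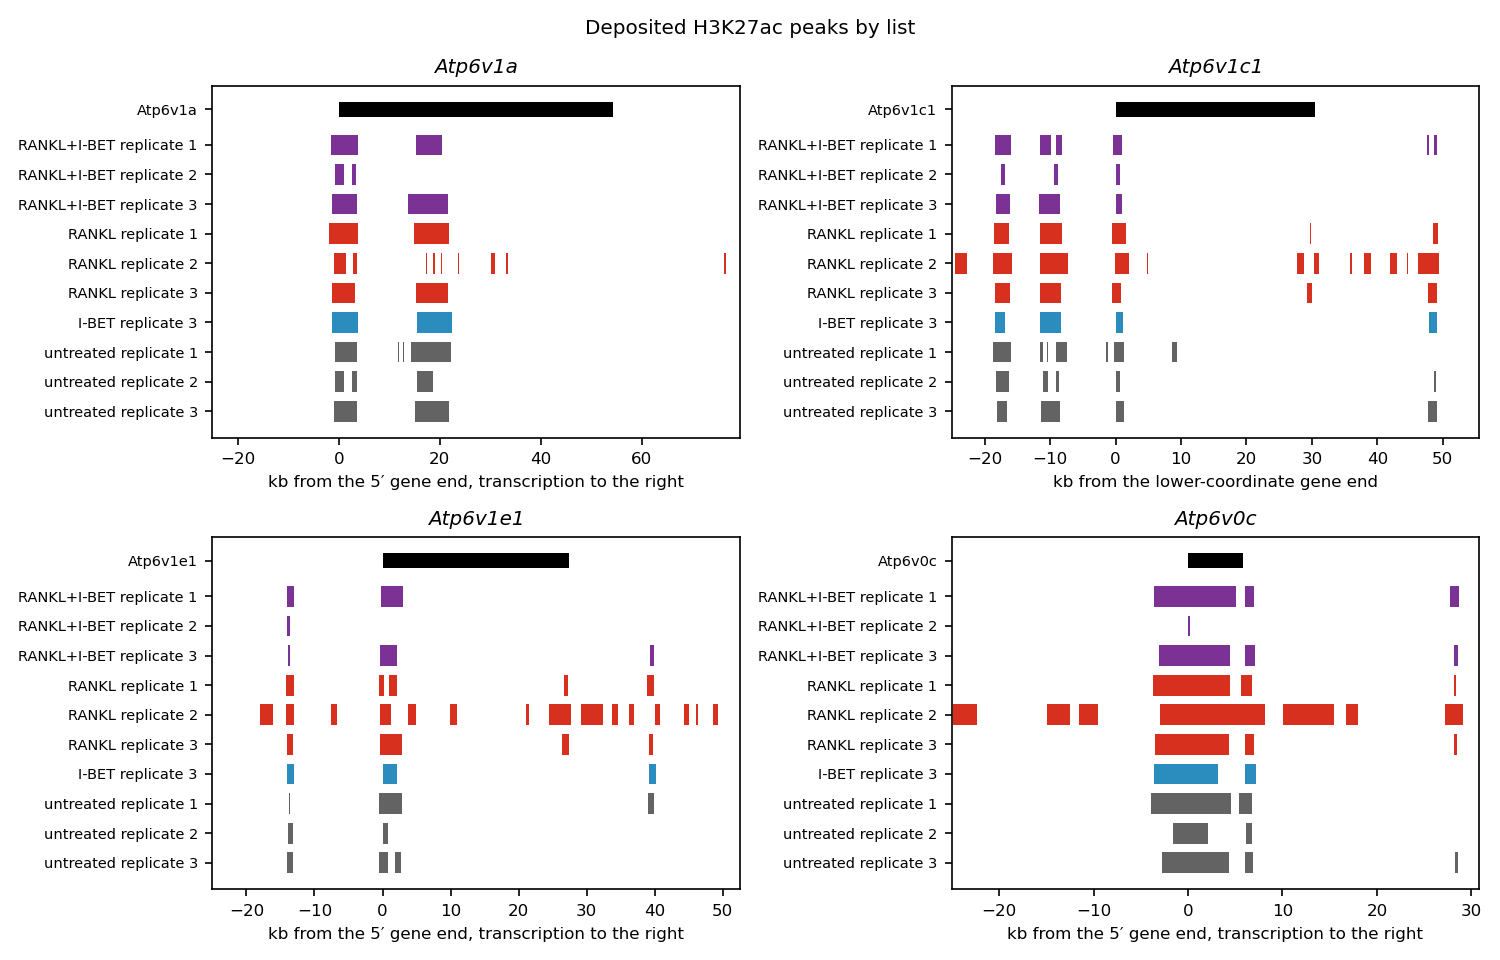
Horizontal bars are deposited peaks of each of the 10 lists around Atp6v1a, Atp6v1c1, Atp6v1e1 and Atp6v0c, placed by distance in kb from a gene end, with the gene as a black bar. The wide stretch inside Atp6v1a and that over Atp6v0c recur in all 7 lists numbered 1 and 3. A peak at the far end of Atp6v1e1 appears in the 3 RANKL lists alone, short in replicates 1 and 3. It is 3.24 kb wide in replicate 2, which is by far the longest list and adds little here.

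A single stretch was shared by the 3 RANKL lists and found in no other list. It lay at the 3′ end of Atp6v1e1 (chr6:120795366-120796294) and held 0.572, 0.929 and 0.929 kb in RANKL, with a fold enrichment of 2.04, 2.93 and 1.92, and 0 kb in RANKL+I-BET, I-BET and untreated cells. In RANKL replicate 2 it was part of a peak of 3.24 kb, 1 of 15 peaks of that list around the gene. Each RANKL list held 25 of the 26 pump gene stretches. Replicate 2 also covered 184.6 Mb of the genome, so its peak at this stretch adds little to those of replicates 1 and 3. Over the genome 140 of 17608 stretches, 0.795%, had this pattern. Considered pair by pair, 4.15% of stretches were held by every RANKL list and by none of the untreated lists, and 2.03% by none of the RANKL+I-BET lists and by every RANKL list, with 1 of the 26 pump gene stretches in each case. The annotated end of Slc25a18, the nearest other gene, lay 1.07 kb from the end of Atp6v1e1.

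A further stretch at the upper-coordinate end of Atp6v1c1 (chr15:38691178-38691906) held 0 kb in RANKL+I-BET, 0.162 and 0.729 kb in RANKL, and 0 kb in I-BET and untreated cells, but it was missing from RANKL replicate 2. Counting lists numbered 1 and 3 alone, 2 of the 26 pump gene stretches were thus in the RANKL lists and in no other, against 1.12% of all stretches. In the same lists 5.68% of all stretches were in both RANKL and neither untreated list, and 2.66% in neither RANKL+I-BET and both RANKL lists. No pump gene stretch had the other patterns: 0.483% of all stretches were in both RANKL+I-BET and neither RANKL list, 2.7% in both RANKL+I-BET and neither untreated list, 0.505% in neither RANKL+I-BET and both untreated lists, and 0.199% in neither RANKL and both untreated lists. With all 3 numbers counted, 0.153% were in every RANKL+I-BET and no untreated list and 0.0511% the reverse, again with no pump gene stretch. Counts of 1 and 2 are too few for a statement about the pump genes as a group.

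RANKL was compared with untreated cells to see whether acetylation around the pump genes had changed after 4 h of the osteoclast signal. Before the test, peaks were taken from each list numbered 1 or 3 in order of their -log10 p, highest first. This went up to a covered length of 16.1 Mb, that of the shortest list, untreated replicate 1, which thus stayed uncut. The limma fit used log2 of the covered length plus 500 bp. None of the 10 pump genes and 0 of the 10946 genes tested (0%) passed an adjusted p of 0.05, with 575 genes at an unadjusted p under 0.05. Among the pump genes 5 had a positive and 5 a negative difference, with a median of -0.0080 against 0.026 for all genes, and the smallest adjusted p among them was 0.905 (limma, Benjamini-Hochberg).

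The 2 lowest pump gene differences and the highest involved peaks that fell below the limit of their own list. That limit differed between lists: the lowest -log10 p kept was 4.22 and 4.58 in RANKL and 0.92 and 3.36 in untreated cells. A dropped peak was therefore not always weaker than a kept one. At Atp6v1b2 the dropped RANKL peaks had a -log10 q of 2.16 and 1.94, and the kept untreated peaks 1.84 and 2.61. Atp6v1b2 kept 0 and 0 kb in the reduced RANKL lists, against 0.975 and 1.51 kb in the untreated ones, a log2 difference of -1.79 (SE 0.58, limma adjusted p = 0.905), although its deposited RANKL lists held 1.73 and 1.38 kb. Atp6v1a kept 12.7 and 0 kb in RANKL, against 12.8 and 11.1 kb in untreated cells, a difference of -2.28 (SE 1.39, adjusted p = 0.929), although RANKL replicate 3 held 10.7 kb as deposited. Atp6v0d1 had the highest difference, 1.29 (SE 0.81, adjusted p = 0.929), with 2.46 and 1.80 kb in RANKL and 1.78 and 0 kb in untreated cells, although untreated replicate 3 held 2.55 kb as deposited. Without that library the difference was 0.20 (SE 0.51), and with lists as deposited and centred it was -0.30 (SE 0.22).

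The direction of the pump genes as a group depended on how the lists were scaled. With lists as deposited, 9 of 10 genes were higher with RANKL than in untreated cells (median log2 difference 0.16), but the median of all 12186 genes was shifted by 0.44, and once each list was centred on its median gene all 10 were lower (median -0.31, against -0.028 for all genes, of which 53.5% were lower). SEs of the centred differences ran from 0.20 to 0.37, and 0 genes passed the adjusted p, with 488 at an unadjusted p under 0.05. The centred differences ran from -0.50 (SE 0.26) at Atp6v1a and -0.42 (SE 0.22) at Atp6v0c to -0.05 (SE 0.28) at Atp6v1e1, each with a limma adjusted p of 0.867 or above.

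As deposited, the RANKL and untreated lists numbered 1 and 3 did not overlap at Atp6v1c1 and Atp6v1e1, where RANKL was higher, and this was 2 of 10 against 53% of all genes. Atp6v1c1 averaged 8.76 ± 0.38 kb in RANKL and 7.40 ± 0.43 kb in untreated cells, and Atp6v1e1 averaged 5.25 ± 0.85 and 3.82 ± 0.79 kb (SD, n = 2 each). No pump gene lay lower in both RANKL lists than in both untreated lists, against 1.28% of all genes. In the reduced lists Atp6v0b and Atp6v0d1 lay above untreated cells without overlap (20.2% of all genes) and Atp6v1b2 and Atp6v0c below (13.9% of all genes).

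RANKL+I-BET was compared with RANKL to see whether the inhibitor altered acetylation under the osteoclast signal. Again 0 of 10 pump genes and 0 of 10946 genes (0%) passed an adjusted p of 0.05 in limma, with 753 genes at an unadjusted p under 0.05. In the reduced lists 4 pump genes were higher and 6 lower, with a median of -0.17 against -0.00063 for all genes. The smallest adjusted p was 0.586 at Atp6v1b2, with 1.11 and 1.53 kb in RANKL+I-BET and 0 and 0 kb in RANKL (log2 difference 1.85, SE 0.58), and this turned to -0.01 (SE 0.30) with lists as deposited and centred. Atp6v0a1 had the lowest difference, -2.04 (SE 0.85, adjusted p = 0.724), with 0 and 2.36 kb in RANKL+I-BET and 4.94 and 3.94 kb in RANKL, and this turned to 0.07 (SE 0.24) with lists as deposited and centred.

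As deposited, both RANKL+I-BET lists lay below both RANKL lists at Atp6v1c1, Atp6v1d, Atp6v1e1, Atp6v0a1 and Atp6v0d1, 5 of 10 pump genes against 29.7% of all genes, and at 0 the reverse held, against 6.3%. Atp6v1c1 averaged 6.65 ± 0.43 kb in RANKL+I-BET and 8.76 ± 0.38 kb in RANKL, and Atp6v1e1 averaged 3.80 ± 0.76 and 5.25 ± 0.85 kb (SD, n = 2 each). The other 3 differed by less than 0.5 kb between group means. Relative to the median gene, whose shift was -0.14, the pump genes split into 5 higher and 5 lower, with a median centred difference of 0.030 against 0.034 for all genes. In the reduced lists the groups did not overlap at Atp6v1b2 and Atp6v0c, where RANKL+I-BET was higher (15.1% of all genes), and at Atp6v1d and Atp6v0a1, where it was lower (16.9%).

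Set against untreated cells, RANKL+I-BET gave 0 pump genes and 0 of 10946 genes (0%) past an adjusted p of 0.05 in limma, with 333 genes at an unadjusted p under 0.05. The reduced lists held 4 pump genes with a higher and 6 with a lower covered length, with a median of -0.35 against 0.028 for all genes. The lowest values were -1.92 (SE 0.85) at Atp6v0a1 and -1.64 (SE 0.93) at Atp6v1e1, and in both genes RANKL+I-BET replicate 1 kept 0 kb after the reduction, though it held 5.36 and 4.34 kb as deposited. With lists as deposited 6 genes were higher (median 0.059, against a shift of 0.29 in the median of all genes), but after centring 9 of 10 were lower (median -0.23, against -0.0078 for all genes, of which 51.0% were lower).

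As deposited, both RANKL+I-BET lists lay below both untreated lists at Atp6v1c1 and Atp6v1d, 2 of 10 against 2.87% of all genes, and above both at Atp6v1h, 1 of 10 against 34.6%. At Atp6v1c1 the means were 6.65 ± 0.43 kb in RANKL+I-BET and 7.40 ± 0.43 kb in untreated cells, and at Atp6v1d 2.15 ± 0.013 and 2.29 ± 0.13 kb (SD, n = 2 each). In the reduced lists Atp6v1c1, Atp6v1d and Atp6v0a1 lay below (12% of all genes) and Atp6v1h above (19.3%). All 3 comparisons share groups with each other, so their values are not independent.

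**Figure D4:**
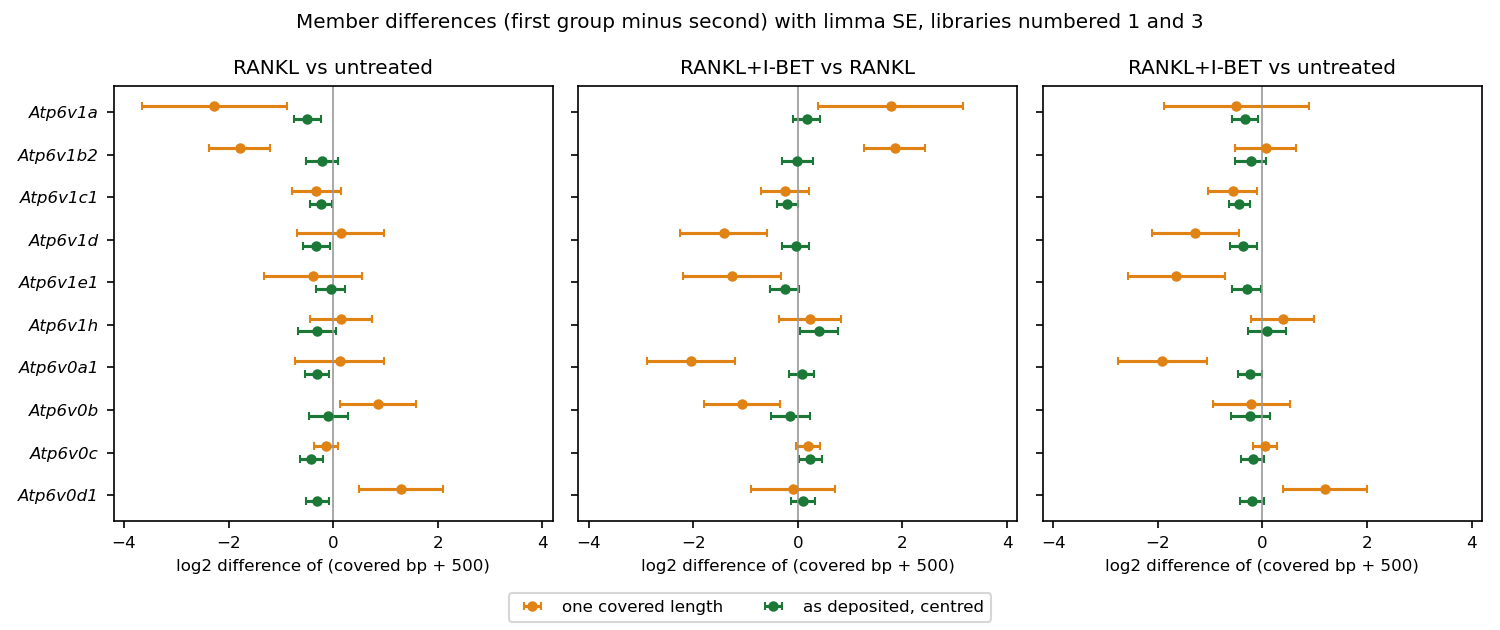
Points are log2 differences of the covered length plus 500 bp, first group minus second, and bars are limma standard errors, for lists numbered 1 and 3 reduced to 1 length (orange) and as deposited and centred on the median gene (green). For RANKL against untreated cells the green points all lie below 0 while the orange ones fall on both sides, and none of the differences shown passed the adjusted p.

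I-BET alone was set beside the untreated library of the same number, without a test because each has 1 library. At the common length 8 pump genes could be compared. Atp6v0d1 was past 2-fold higher, with 2.58 kb in I-BET and 0 kb in untreated cells, against 10.3% of 10265 genes, and Atp6v1b2 was past 2-fold lower, with 0 kb in I-BET and 1.51 kb in untreated cells, against 13.1%. Both gaps were absent as deposited, where Atp6v0d1 held 2.58 and 2.55 kb and Atp6v1b2 1.67 and 1.51 kb. With lists as deposited and centred, 0 of 10 pump genes passed 2-fold, against 4.98% of all genes, and their log2 differences ran from -0.34 at Atp6v0b to 0.29 at Atp6v1e1.

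The lists numbered 2 gave values far from the others. RANKL+I-BET replicate 2 covered 2.69 kb at Atp6v1a, 1.72 kb at Atp6v1c1, 1.40 kb at Atp6v1d and between 0 and 0.535 kb at the other 7 genes. RANKL replicate 2 covered 36.8 kb at Atp6v0a1, 32.8 kb at Atp6v0d1, 31.3 kb at Atp6v0b, 26.7 kb at Atp6v0c, 19.3 kb at Atp6v1e1 and 18.9 kb at Atp6v1c1, and 7.23, 3.69 and 2.67 kb at Atp6v1b2, Atp6v1d and Atp6v1h. Untreated replicate 2 ranged from 0.462 kb at Atp6v1h to 6.09 kb at Atp6v1a.

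Summed over the 10 genes this was 7.94, 185.5 and 23.2 kb in RANKL+I-BET, RANKL and untreated replicate 2, and 42.5 to 50.1 kb in the 7 other lists. Relative to the length of its list, RANKL replicate 2 held the least, 1005 bp per Mb covered, against 1869 to 2982 bp per Mb in the other 9. Of its covered length around the pump genes 23.4% lay in the 26 stretches, against 100% in both RANKL+I-BET and untreated replicate 2. The 7 lists numbered 1 and 3 held 96.9% to 100%, but their own peaks defined the stretches, so that share was nearly fixed in advance. It also lay above all 3 untreated lists at 9 of 10 pump genes, against 98.2% of all covered genes, and the exception was Atp6v1a, with 6.07 kb in RANKL replicate 2 and 6.09 to 12.8 kb in untreated cells.

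Counted over all 3 numbers as deposited, RANKL lay above untreated cells without overlap at Atp6v1c1 and Atp6v1e1 as before (41.8% of 15793 genes). RANKL+I-BET lay below RANKL at the 5 genes named above (23.9%). The lists numbered 2 could add no check here. RANKL replicate 2 covered 184.6 Mb, against 3.44 Mb in RANKL+I-BET replicate 2 and 7.79 Mb in untreated replicate 2. Both reverse patterns held at 0 of the 15793 genes. No pump gene lay wholly above or below untreated cells with RANKL+I-BET, against 0.386% and 0.0443% of all genes. Reduced to the 3.44 Mb of the shortest list, 3 pump genes could be compared and none of them lay apart, against 1.55% higher and 5.29% lower for RANKL against untreated cells, 5.18% and 1.57% for RANKL+I-BET against RANKL, and 2.75% and 3.5% for RANKL+I-BET against untreated cells, of 4401 genes.

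The other subunit genes of the pump fell into separate sets. Of 14, 8 had a gene-end peak in all 7 lists numbered 1 and 3 (Atp6v1f, Atp6v1g1, Atp6v1g2, Atp6v0a2, Tcirg1, Atp6v0e, Atp6v0e2 and Rnasek), and 6 had one in none of them (Atp6v1b1, Atp6v1c2, Atp6v1e2, Atp6v1g3, Atp6v0a4 and Atp6v0d2). The set without peaks holds forms known from other tissues, such as Atp6v1b1 and Atp6v0a4 of the kidney and Atp6v1e2 of the testis, and also Atp6v0d2, a form induced in osteoclasts. Gene ends of another gene lie within 2 kb of Atp6v1f, Atp6v1g2, Atp6v0a2, Tcirg1 and Rnasek, so their peaks may belong to that gene. Of the 9 tested genes of this list, 0 passed the adjusted p in any of the 3 comparisons.

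Tcirg1, the a3 form of the subunit encoded by Atp6v0a1 and the one osteoclasts place at the ruffled border, was covered over 14.0 and 15.7 kb in RANKL+I-BET, 15.6 and 16.6 kb in RANKL, 15.3 kb in I-BET and 14.6 and 14.3 kb in untreated cells. Atp6v0d2, which takes the place of Atp6v0d1 in the osteoclast pump and serves cell fusion, had no gene-end peak in any of the 10 lists. Its window held 2.10 and 0.84 kb in RANKL+I-BET, 1.95 and 2.51 kb in RANKL, 1.34 kb in I-BET, and 7.15 and 0.963 kb in untreated cells. Neither gene passed the limma threshold, with log2 differences of RANKL minus untreated of 0.15 (SE 0.17) at Tcirg1 and -1.59 (SE 1.09) at Atp6v0d2. Atp6v0e, a small V0 subunit, held 2.77 and 4.48 kb in RANKL+I-BET, 3.27 and 2.86 kb in RANKL, 1.69 kb in I-BET and 1.27 and 2.64 kb in untreated cells.

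Among 13 accessory, assembly and regulatory genes 3 had a gene-end peak in all 7 lists, 7 in some and 3 in none, and among 6 partners of acid secretion 3 had one in all and 3 in some. Of the 9 and 4 that entered the limma test, 0 passed the adjusted p in each comparison. Atp6ap1, an accessory subunit that guides the pump through the secretory pathway, held 3.98 and 5.56 kb in RANKL+I-BET, 7.04 and 6.66 kb in RANKL, 2.33 kb in I-BET and 1.85 and 2.74 kb in untreated cells. Atp6ap2, a second accessory subunit, held 2.00 and 1.41 kb in RANKL+I-BET, 2.88 and 2.02 kb in RANKL, 0.738 kb in I-BET, and 0.938 and 0.280 kb in untreated cells. As deposited, the lists of both genes did not overlap between groups, with RANKL highest and untreated cells lowest, and their limma adjusted p at the common length was 0.90 or above in each comparison. Of the 13 genes of this list, 12 reached a mean of 500 bp as deposited. Without overlap, 6 of the 13 lay above untreated cells with RANKL (53% of the 12186 genes reaching this mean). Another count of 6 lay below RANKL with RANKL+I-BET (29.7%), and 4 lay above untreated cells with RANKL+I-BET (34.6%).

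Clcn7, the chloride exchanger that balances the charge of pumped protons, held 3.73 and 3.77 kb in RANKL+I-BET, 4.06 and 4.46 kb in RANKL, 2.01 kb in I-BET and 0.888 and 3.98 kb in untreated cells. Its partner Ostm1 held 0.60 and 0.532 kb, 0.365 and 0 kb, 1.32 kb, and 0 and 0 kb in the same order of groups. Car2, the carbonic anhydrase that supplies protons in osteoclasts, held 1.43 and 0 kb, 0.250 and 0 kb, 0.913 kb, and 0.564 and 0 kb. Coverage of Ostm1 and Car2 was thus absent from some lists of every treated or untreated pair except RANKL+I-BET at Ostm1, unlike that of the 10 pump genes.

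Some genes had a covered length close to the mean of the 10 pump genes over the 7 lists numbered 1 and 3. By root mean square distance of log2 values, each list centred on its median gene, the nearest were Rbm5 (0.13), Spp1 (0.19), Mzt2 (0.24), Syce3 (0.25) and Yipf1 (0.26). This distance takes in the level of coverage as well as its change between lists, so a small value need not mean a shared change. The median distance over 10936 genes was 1.21.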

How the data were processed

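H3K27ac peak lists of 10 immunoprecipitated RAW264.7 libraries were used, and 10 input samples were not analysed here. Per the labels' protocols, cells were fixed with 1% formaldehyde and libraries sequenced as single-end 50 bp reads. Per the submitters' processing notes, FastQC, Bowtie2 and MACS2 were used on mm10 (GRCm38), with versions not given. Whether peaks were called against input is not given in the sources used here. In the deposited broad-peak tables the score is 10 times the -log10 q as a whole number, the fold enrichment is a linear ratio, and p and q are on a -log10 scale. These are the authors' values per peak and served to rank and describe peaks inside a single list. No counts are in the lists, so the depth is unknown.

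The labels gave each library its group and replicate number. Gene spans came from a RefSeq table of GRCm38 (21887 protein-coding genes). Covered bp were counted in each span plus 25 kb. Lists numbered 1 and 3 were reduced, by highest -log10 p, to 16.1 Mb. Genes with a mean under 500 bp were left out, and log2(covered bp + 500) was fitted with limma 3.58.1 (R 4.3.3, trended prior) over 6 libraries of 3 groups, with Benjamini-Hochberg adjustment over all genes tested. Python 3.11.15 made the other counts. The code was tested on simulated data. For limma these were normal values, without the floor at 0 kb or the dropped whole peaks of the real lists, where recovery may differ. For RANKL against untreated cells, the limma fit recovered 15 of 50 planted log2 differences of 2 and 25 of 50 of 4. It recovered 40 of 50 of 6 and 46 of 50 of 8. It made 10 false calls, so many real differences of moderate size could be missed. A single I-BET library was described past 2-fold without a test.

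The same-number pairs of all 3 groups deviated together from their group means (correlations 0.148 to 0.583 over all genes). Pairs of different numbers ran from -0.519 to 0.384. RANKL replicate 1 reached 0.211 with untreated replicate 3, against 0.148 with untreated replicate 1. Among the 6 libraries of the fit alone, pairs numbered 1 correlated at 0.221 to 0.301. The numbers, which come from the labels, may thus pair the libraries, and a fit with the number as a block was an alternative. The members, gene lists, motifs and tests were chosen with earlier results of these data known. Named genes were the pump genes, 8 fixed genes of the pathway lists, neighbours whose ends lie in a pump gene's window with a peak, and the 5 genes most like the pump genes. Further settings were another window, pseudocount, filter, ranking, peak threshold, list scaling, all 9 libraries, and each library left out in turn.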

Additional observations from a re-analysis of the deposited data

Results flagged for a closer look

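RANKL replicate 2, which no test above used, stood far outside the range of the other lists. Its peaks summed to 185.5 kb over the 10 pump genes, against 23.2 to 46.4 kb in the 3 untreated lists and at most 50.1 kb in any of the other 9 lists. It also placed gene-end peaks at 10 of 10 lymphocyte marker genes, where the other lists had 0 or 1. The part of this in the pump gene values was not tested.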

How the results depend on the processing

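Under all 20 settings tried per comparison, 0 genes and 0 pump genes passed the adjusted p in limma. Leaving out each library in turn also gave 0 to 0 genes and 0 to 0 pump genes, and moved the median pump gene log2 difference between -0.28 and 0.16 for RANKL against untreated, between -0.73 and 0.089 for RANKL+I-BET against RANKL, and between -0.75 and 0.037 for RANKL+I-BET against untreated, where the lone library of a group was assumed to vary like the others. With the replicate number as a block no call changed, and the medians stayed at -0.0080, -0.17 and -0.35. With all 9 libraries at the length of the shortest list, 3 pump genes could be tested and the RANKL against untreated median was -1.59, with the block also -1.59. At a -log10 q of at least 5, 430 genes and 1 pump gene were left, with 1.51 for RANKL against untreated and -1.51 for RANKL+I-BET against RANKL. Pump genes past 2-fold with I-BET numbered 2, but 0 with lists as deposited and centred or with a mean of at least 2000 bp, 3 without a filter on low values, and 1 with 1 kb windows at gene ends, with a pseudocount of 2000 bp, at a -log10 q of at least 5, or with the reduction by fold.

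Gene-end peaks at a -log10 q of at least 5 were left at 2, 1 and 2 pump genes in RANKL+I-BET, 3, 6 and 2 in RANKL, 1 in I-BET and 0, 0 and 1 in untreated cells, and at the common length at 6 in RANKL+I-BET replicate 1 and 6 in I-BET. Pump genes whose groups did not overlap at the common length numbered, as higher and lower, 2 and 2 for RANKL against untreated, 2 and 2 for RANKL+I-BET against RANKL and 1 and 3 for RANKL+I-BET against untreated. As deposited the RANKL against untreated count of lower genes was 0, and RANKL+I-BET against RANKL gave 0 higher and 5 lower. With all 9 libraries at a common length, where 3 pump genes were tested, all 6 counts were 0. With all 9 as deposited, an alternative chosen after seeing the data, lower genes were 0 for RANKL against untreated. RANKL+I-BET against RANKL then gave 0 higher and 5 lower, and RANKL+I-BET against untreated gave 0 and 0. Because the lists numbered 2 were so unequal in length, these counts add no check on those of numbers 1 and 3. Of 516 single pump gene differences under these settings 58 changed sign, none of them past the adjusted p. The cause was not tested, except that reduction drops whole peaks below a strength limit, which differs between lists. A gene can thus go to 0 kb in a reduced list while it stays covered as deposited. Lists without counts give no measure of depth.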
